A study of Mus musculus with 12 samples.

Results

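The genes described here carry glucose through the cell: its uptake, glycolysis, the making and export of lactate, the entry of pyruvate into mitochondria and the pentose phosphate pathway, with the hypoxia factor Hif1a beside them. They were chosen by function, 38 of the 55453 genes in the count table. A gene was kept if its mean level over the 12 libraries was at least 1 CPM (counts scaled by TMM to the size of the library), which left 33 members. Slc2a3 was the lowest of those kept, at 1.53 CPM, and Pfkfb3 the highest of the 5 left out, at 0.702 CPM. The other 4 left out were Hk2 (0.106 CPM), Eno2 (0.164 CPM), Rpia (0.0755 CPM) and Galk1 (0.0552 CPM). All 5 lie on the minus strand, whose genes were poorly counted here, so their low counts do not show a low level of transcript. Of the 33 kept, 21 lie on the plus strand and 12 on the minus strand, and the strand is given wherever it matters.

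The study removed CNS4, a distal enhancer of Foxp3, the transcription factor that defines regulatory T (Treg) cells, and sequenced the RNA of Treg cells. Flow cytometry gave CD4+Foxp3+ cells, which were not treated after the sort, all mice were C57BL/6, matched for age and sex, and every sample title holds the letters Thy. Ages were not given in the labels. The 12 libraries fall into 4 groups of 3: males labelled CNS4 knockout, males labelled CNS4 floxed (wild type), females labelled CNS4 knockout heterozygotes and females labelled CNS4 floxed heterozygotes. The floxed groups carry the enhancer with recombination sites around it, undeleted. Foxp3 lies on chromosome X, and the labels do not say which allele was in use in the sorted cells of heterozygous females. Nor do they say if the 3 libraries of a group are 3 animals, and the p-values therefore rest on differences among samples that may be technical.

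Glycolysis splits glucose into pyruvate and yields ATP and NADH quickly, and lactate dehydrogenase turns pyruvate into lactate so that the pathway can go on. The pentose phosphate pathway branches off after the first step and supplies NADPH and the ribose of nucleotides. T cells raise glucose uptake and glycolysis when they are activated and divide, through mTOR, Myc and HIF-1, whereas Treg cells are known to lean more on mitochondrial oxidation, and Foxp3 is known to hold glycolysis back.

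Gene counts per library ran from 12423335 to 30244505, the highest in male knockout library 3, followed by 16250798 in male knockout library 1. The T cell genes Cd3d (776 to 1218 CPM), Foxp3 (685 to 2675 CPM) and Il2ra (1904 to 3163 CPM) were high in every library. Foxp3 itself, whose enhancer was deleted, had 685 to 2037 CPM in the knockout and 2227 to 2675 CPM in the floxed libraries, though its counts do not show the enhancer. Cd4, on the minus strand, averaged 7.91 CPM, and the CD8 genes Cd8a and Cd8b1 had 30.1 to 131 and 76.7 to 186 CPM. Genes on the plus strand held 95.8 to 97.2% of the reads of protein-coding genes. Female knockout libraries 1 and 3 stand apart at the low end of a library trait, and male floxed library 4 and male knockout library 3 at the high end. The Spearman correlation across genes between GC content and the library's deviation from the gene means was -0.411 and -0.318 in the pair of female knockout libraries, 0.398 in male knockout library 3 and 0.470 in male floxed library 4, with a median of 0.0457. For several members the fold change is also given without the female pair. That fit leaves 1 female knockout library, whose spread is taken to be that of the other groups. Where 3 values are listed they follow the library numbers, 1, 2 and 3, or 1, 2 and 4 in floxed males.

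The question of the main comparison was which members differed between knockout and floxed Treg cells over both sexes. In knockout cells 8 of the 33 members were higher and 0 lower (edgeR quasi-likelihood test over 12411 genes, Benjamini-Hochberg adjusted p under 0.05), while 3.31% of all genes tested were called, 2.68% higher and 0.637% lower. The balance over all genes, 332 higher and 79 lower, turned round to 499 higher and 719 lower with the replicate number as a block, 1834 and 2796 with limma-voom, and 1075 and 1865 without female knockout library 2. The 8 called members are Gpi1, Aldoa, Aldoc, Tpi1, Gapdh, Pgk1, Eno1 and Ldha, which between them catalyse most steps from glucose 6-phosphate to lactate. Their rises were modest, between 1.26-fold for Gpi1 and 1.76-fold for Aldoc. No member of glucose uptake, the phosphofructokinase step, pyruvate entry into mitochondria or the pentose phosphate pathway passed the threshold. In a sorted population, a larger share of cells with high levels and more RNA per cell cannot be told apart.

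The median log2 fold change was 0.12 over the 33 members and -0.02 over all genes tested, and 20 members lay above 0. By edgeR 12 of the 33 members and 2512 of the 12411 genes had an unadjusted p under 0.05. Many members are abundant, and 3.88% of genes with a mean of at least 5 CPM and 5.05% of those with at least 100 CPM were called higher. On the plus strand 4 of 21 members were called higher (Aldoc, Pgk1, Eno1, Ldha; median 0.05), against 3.23% of all plus-strand genes. On the minus strand 4 of 12 were called higher (Gpi1, Aldoa, Tpi1, Gapdh; median 0.21), against 0.877% of all minus-strand genes. By role, the calls were 6 of 10 tested genes of lower glycolysis (aldolase to pyruvate kinase, median 0.38), 1 of 3 of hexose entry (Gpi1) and 1 of 4 of lactate (Ldha).

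**Figure D1:**
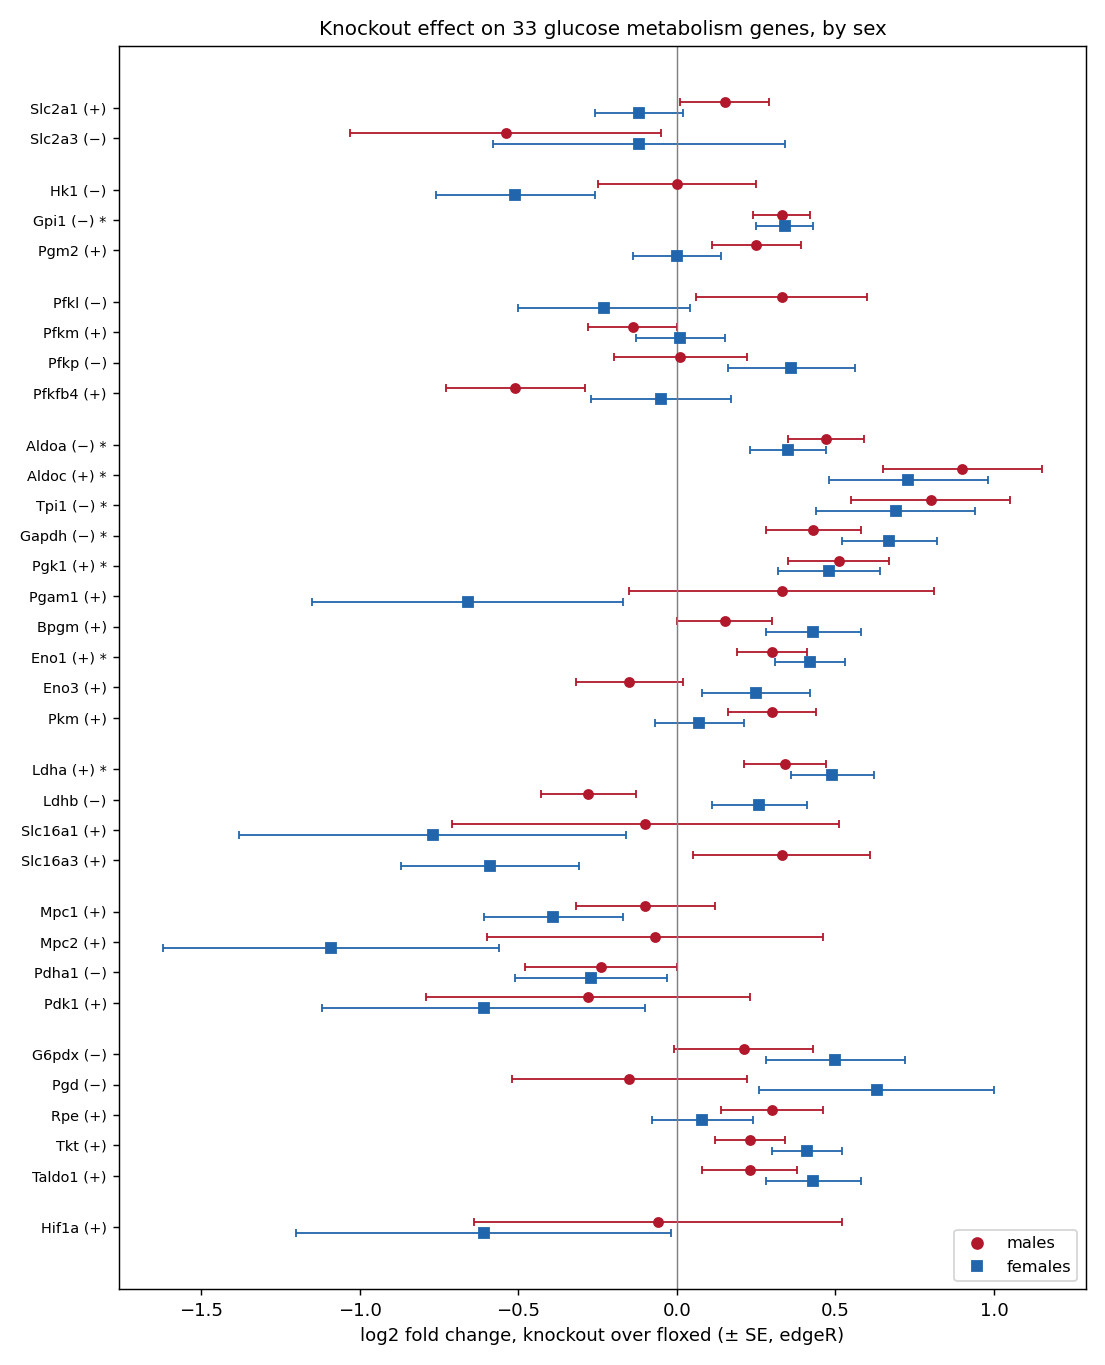
Log2 fold change of knockout over floxed for the kept members, grouped by role, in males and in heterozygous females, with bars of 1 SE. An asterisk marks an adjusted p under 0.05 over both sexes by edgeR and the sign in brackets is the strand. The 8 called members lie between Gpi1 and Ldha in the order of the pathway. The 4 genes of pyruvate entry all lie below 0 in each sex.

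The number of called members depended on single libraries, and so did that of all genes. All genes called were 411 with all 12 libraries and 98 to 2940 with 1 left out. Among members the number fell to 0 without male knockout library 1 or 2 or male floxed library 1. It also fell to 0 without female knockout library 1 or 3 or female floxed library 2 or 3. In those fits 98 to 208 of all genes were called. Among members it fell to 2 without male floxed library 2 or female floxed library 1. It was 5 without male floxed library 4, 8 without male knockout library 3 and 13, of which 2 were lower, without female knockout library 2. Without female knockout libraries 1 and 3 together, a fit with 1 female knockout library left, it was 0, and after a trend on GC content and gene length was removed from each library it was 1 (Gapdh). The fold changes moved much less: over the 12 fits that each left out 1 library, Gpi1 lay between 0.30 and 0.38, Ldha between 0.36 and 0.47 and Aldoc between 0.71 and 0.94. Without female knockout libraries 1 and 3 the 8 fold changes were 0.27 to 0.60, and after the GC and length trend was removed they were 0.47 to 0.90, with Eno1 at 0.80 and Aldoa at 0.70. The SD of log2 CPM within groups was 0.08 to 0.30 for the 8 before that removal and 0.23 to 0.45 after it. For Eno1 it went from 0.12 to 0.45. The median over 7006 genes with a mean of at least 5 CPM went from 0.27 to 0.30. The part of this wider spread in the loss of calls was not tested.

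The promoters of the called members on the plus strand are shown first, since these are the called genes whose strand was counted well. Each is the 250 bases before the most upstream start listed by RefSeq (GRCm38.p6), 5′ to 3′ on the gene's own strand, which is the plus strand for all 4. Capitals mark ACGTG or GCGTG read on either strand, the core of the element that HIF-1 binds. The windows are chr11:78322823-78323072 for Aldoc, chrX:106186850-106187099 for Pgk1, chr4:150236458-150236707 for Eno1 and chr7:46845554-46845803 for Ldha.
Aldoc: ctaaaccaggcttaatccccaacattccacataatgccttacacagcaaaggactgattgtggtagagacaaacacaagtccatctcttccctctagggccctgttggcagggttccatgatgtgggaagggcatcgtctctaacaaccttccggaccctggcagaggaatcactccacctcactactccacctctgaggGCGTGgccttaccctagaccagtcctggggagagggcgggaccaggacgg
Pgk1: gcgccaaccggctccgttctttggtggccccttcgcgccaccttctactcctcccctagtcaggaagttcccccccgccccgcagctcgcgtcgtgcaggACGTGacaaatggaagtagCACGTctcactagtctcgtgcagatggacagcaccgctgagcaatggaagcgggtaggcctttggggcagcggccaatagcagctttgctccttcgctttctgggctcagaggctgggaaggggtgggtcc
Eno1: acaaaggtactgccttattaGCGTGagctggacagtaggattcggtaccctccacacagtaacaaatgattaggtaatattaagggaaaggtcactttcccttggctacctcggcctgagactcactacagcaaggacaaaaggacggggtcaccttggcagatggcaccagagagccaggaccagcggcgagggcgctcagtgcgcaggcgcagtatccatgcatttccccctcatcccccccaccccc
Ldha: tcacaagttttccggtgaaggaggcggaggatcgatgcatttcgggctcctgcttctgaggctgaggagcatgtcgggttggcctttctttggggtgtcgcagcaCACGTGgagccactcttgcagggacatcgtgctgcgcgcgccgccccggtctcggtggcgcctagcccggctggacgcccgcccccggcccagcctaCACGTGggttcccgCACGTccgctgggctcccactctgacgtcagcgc
Ldha held 5 matches, whose first bases lay 145, 144, 48, 47 and 34 bases before the start, and in 2 places the pair of overlapping matches forms CACGTG, the letters of an E-box, which Myc can bind. Pgk1 held 2, at 150 and 131 bases before the start, Eno1 1 at 230 bases and Aldoc 1 at 50 bases. Of the 37 members listed by RefSeq with a promoter, 29 held a match, 78.4%, against 38.6% of 27025 promoters of all genes and 43.9% of 17492 of protein-coding genes. Among the 8 called members 5 held one: these 4 and Gapdh. CACGTG stood in 5 of the 37, against 6.04% of all promoters, and GGGCGG, the GC box of Sp1, in 25 of the 37, against 32.96%. A match is a description of letters, not a binding site, and says nothing of which factor acts there.

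Gpi1, on chromosome 7 and the minus strand, encodes glucose-6-phosphate isomerase, the step that turns glucose 6-phosphate into fructose 6-phosphate. Gpi1 had 431, 409 and 402 CPM in male knockout libraries, against 323, 324 and 338 CPM in male floxed libraries. Gpi1 in females had 487, 419.7 and 475 CPM in knockout libraries, against 386, 344 and 360.1 CPM in floxed libraries. Each knockout library lay above each floxed library of its sex, with a log2 fold change of 0.34 (edgeR, SE 0.07, adjusted p = 0.0218). Its libraries lay closer together within a group than those of nearly all genes, with a within-group SD of 0.08 in log2 CPM, at percentile 0.899 of 7006 genes. Gpi1 shares 741 exonic bases with the plus-strand lincRNA Gm26762, which averaged 99.6 CPM and had a log2 fold change of 0.26 (edgeR, SE 0.09, adjusted p = 0.167). Part of the reads in either gene may be those of the other, and their part in the result was not tested. The same holds for other minus-strand members that share exonic bases with genes of the plus strand. Pfkp shares 748 with Pitrm1 (mean 265 CPM), Pdha1 603 with Map3k15 (182 CPM) and G6pdx 418 with Ikbkg (240.4 CPM). Hk1, Gapdh, Tpi1 and Aldoa share 157, 68, 34 and 25.

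The other hexose-entry genes did not pass the threshold. Hk1, the minus-strand gene of hexokinase 1, which traps glucose as glucose 6-phosphate, had 4.65 to 11.5 CPM and a log2 fold change of -0.26 (edgeR, SE 0.18, adjusted p = 0.429). The plus-strand gene listed as Pgm2, a phosphoglucomutase, had 85.6 to 123 CPM and a log2 fold change of 0.12 (edgeR, SE 0.10, adjusted p = 0.517).

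Aldolase cleaves fructose 1,6-bisphosphate into a pair of triose phosphates, and both aldolase genes measured here were higher in knockout cells. Aldoa, on chromosome 7 and the minus strand, is the form of most tissues. Aldoa had 65.04, 65.6 and 66.4 CPM in male knockout libraries, against 42.6, 49.3 and 50.9 CPM in male floxed libraries. Aldoa in females had 60.5, 64.98 and 69.4 CPM in knockout libraries, against 52.7, 48.6 and 52.2 CPM in floxed libraries. The knockout libraries of either sex lay within 60.5 to 69.4 CPM and all floxed libraries at or below 52.7 CPM, and the log2 fold change was 0.41 (edgeR, SE 0.09, adjusted p = 0.0324). Aldoc, on chromosome 11 and the plus strand, is best known as the brain form. Aldoc had 27.6, 24.4 and 20.8 CPM in male knockout libraries, against 10.004, 17.2 and 11.8 CPM in male floxed libraries. Aldoc in females had 35.7, 21.7 and 30.5 CPM in knockout libraries, against 19.2, 15.3 and 18.6 CPM in floxed libraries. Its groups did not overlap within a sex, though the 21.7 CPM of female knockout library 2 and the 19.2 CPM of female floxed library 1 were close, and the log2 fold change was 0.81 (edgeR, SE 0.18, adjusted p = 0.0340).

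Tpi1 and Gapdh lie near each other on chromosome 6, on the minus strand, and act one after the other. Tpi1 encodes triose-phosphate isomerase, which makes both trioses usable. Tpi1 had 9.43, 8.67 and 6.57 CPM in male knockout libraries, against 3.79, 5.74 and 4.59 CPM in male floxed libraries. Tpi1 in females had 11.5, 6.79 and 8.93 CPM in knockout libraries, against 5.54, 5.81 and 5.51 CPM in floxed libraries. Its counts were low, as for other minus-strand genes, which does not show a low level of transcript. The groups did not overlap, with female knockout library 2 the lowest of its group, and the log2 fold change was 0.75 (edgeR, SE 0.17, adjusted p = 0.0456). Gapdh encodes glyceraldehyde-3-phosphate dehydrogenase, which makes NADH and is known to bind RNA in T cells that do not engage glycolysis. Gapdh had 509.8, 508 and 489 CPM in male knockout libraries, against 309, 386 and 422 CPM in male floxed libraries. Gapdh in females had 609.6, 469 and 583 CPM in knockout libraries, against 372, 298 and 372 CPM in floxed libraries. The lowest knockout library, at 469 CPM, lay above the highest floxed library, at 422 CPM, over both sexes. Its log2 fold change was 0.55 (edgeR, SE 0.10, adjusted p = 0.0193), the smallest adjusted p among the members, and it kept its call in 13 of 21 alternative fits, more than any other of the 8. Pgk1 kept its call in 5 of 22, Tpi1 in 6 of 21, Aldoa in 7 of 21 and Gpi1 in 8 of 21. Aldoc, Eno1 and Ldha each kept theirs in 10 of 22.

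Pgk1 and Eno1 follow Gapdh in the pathway. Pgk1, on chromosome X and the plus strand, encodes phosphoglycerate kinase, the first step that makes ATP. Pgk1 had 34.7, 29.7 and 32.9 CPM in male knockout libraries, against 21.2, 23.4 and 23.9 CPM in male floxed libraries. Pgk1 in females had 41.2, 29.1 and 32.7 CPM in knockout libraries, against 23.8, 23.8 and 26.4 CPM in floxed libraries. All knockout libraries lay above all floxed libraries, the closest being 29.1 CPM in female knockout library 2 and 26.4 CPM in female floxed library 3, and the log2 fold change was 0.49 (edgeR, SE 0.12, adjusted p = 0.0457). Eno1, on chromosome 4 and the plus strand, encodes alpha-enolase, which makes phosphoenolpyruvate. Eno1 had 1861, 1749.9 and 1719 CPM in male knockout libraries, against 1292, 1474 and 1565 CPM in male floxed libraries. Eno1 in females had 2038, 1686 and 1974 CPM in knockout libraries, against 1528, 1295 and 1429 CPM in floxed libraries. The 6 knockout libraries reached 1686 to 2038 CPM and the 6 floxed ones 1292 to 1565 CPM, without overlap, and the log2 fold change was 0.36 (edgeR, SE 0.08, adjusted p = 0.0330).

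Ldha, on chromosome 7 and the plus strand, encodes the subunit of lactate dehydrogenase that favours making lactate. It was the most abundant member on the plus strand. Ldha had 2857, 2476 and 2872 CPM in male knockout libraries, against 1809, 2326 and 2351 CPM in male floxed libraries. Ldha in females had 3326, 2582 and 3077 CPM in knockout libraries, against 2159, 2085 and 2159 CPM in floxed libraries. Every knockout library lay above every floxed library, the lowest being male knockout library 2, and the log2 fold change was 0.41 (edgeR, SE 0.09, adjusted p = 0.0343). As group means it reached 2735 ± 224 CPM in male knockout and 2162 ± 306 CPM in male floxed cells, and 2995 ± 379 CPM in female knockout and 2134 ± 42.8 CPM in female floxed cells (SD, n = 3 each).

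**Figure D2:**
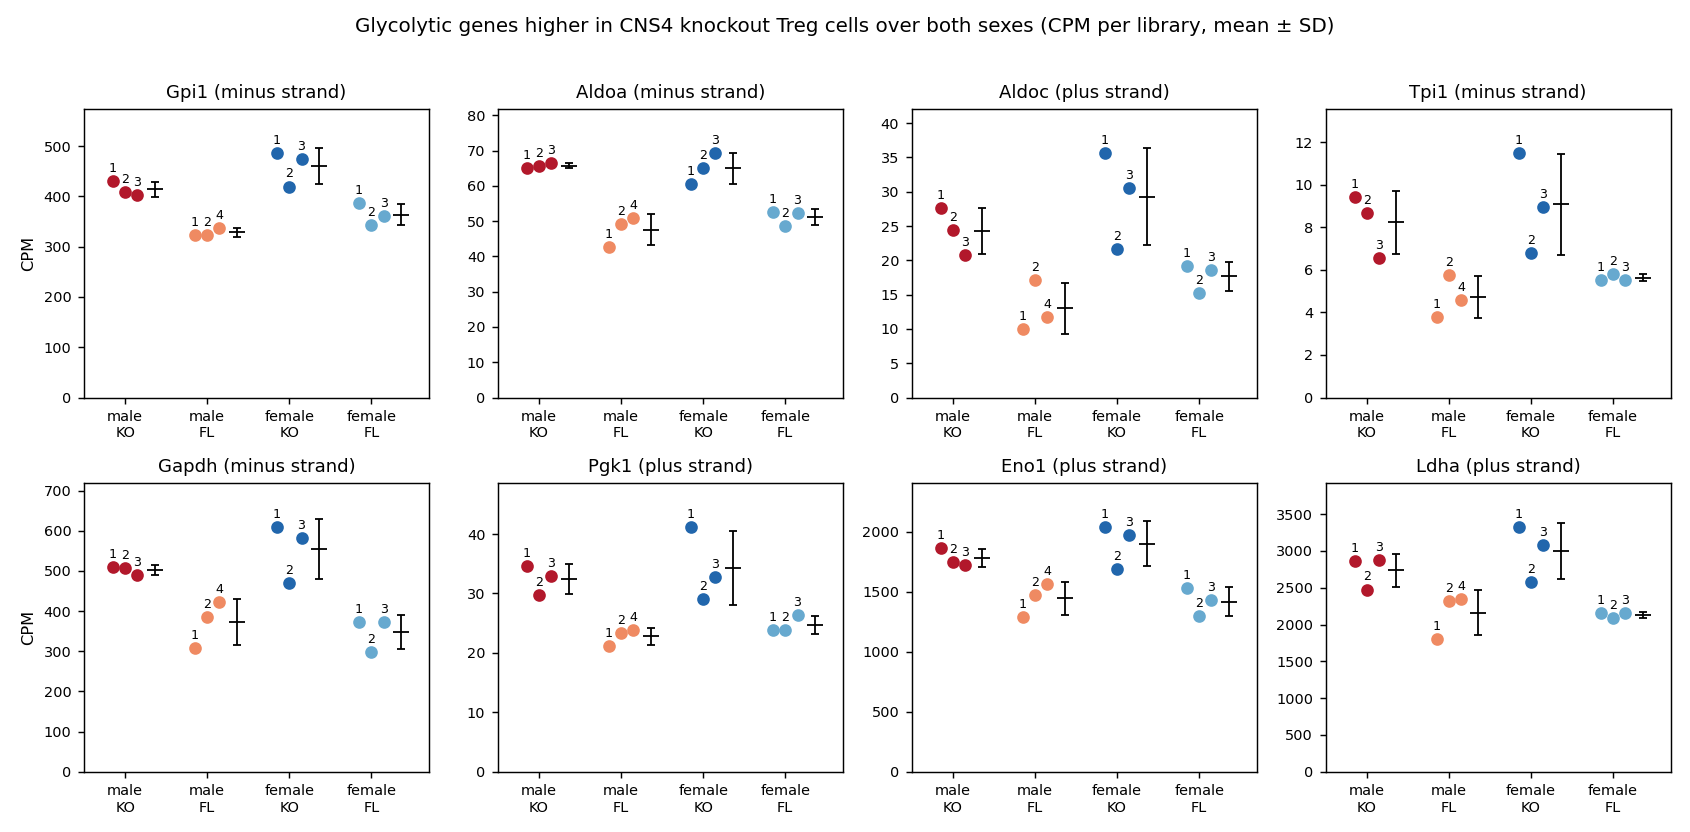
CPM of the 8 called members in each library (points, numbered by library) with the mean and SD of each group of 3. In each panel the 3 knockout libraries lie above the 3 floxed libraries of the same sex.

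Summed over the 8 genes, the level was 5795, 5271 and 5608 CPM in male knockout libraries, against 3811, 4606 and 4768 CPM in male floxed libraries. In females it was 6609.6, 5279 and 6251 CPM in knockout and 4547, 4116 and 4423 CPM in floxed libraries. The 8 were picked as called higher in these same libraries, so a higher sum in knockout follows from the choice. Over all 33 kept members, the 8 included, male knockout libraries summed to 10525, 9736 and 11399 CPM. Male floxed libraries summed to 8107, 9682 and 9036 CPM. For females the sums were 10309, 9885 and 10458 CPM in knockout and 8463, 8011 and 8601 CPM in floxed libraries. The genes of the G2 and M phases had a median log2 fold change of 0.93. Of 23 listed, 21 were tested and 8 were called higher (Birc5, Bub1b, Cenpe, Hmgb2, Kif20a, Nusap1, Prc1 and Tpx2), against 2.68% of all genes. The summed level of that list was 1890.4, 2233 and 1608 CPM in male knockout libraries, against 840.1, 1045 and 1608 CPM in male floxed libraries, so that male floxed library 4 reached the level of male knockout library 3. In females it was 1913, 1764 and 1929 CPM in knockout and 1055, 983 and 1126 CPM in floxed libraries, without overlap. Myeloid and dendritic genes summed to 232 to 1797 CPM in male knockout and 104 to 1659 CPM in male floxed libraries, and to 835 to 1650 CPM in female knockout and 268 to 1117 CPM in female floxed libraries, with 0 of 12 tested genes of the 18 listed called (edgeR; 0 at an unadjusted p under 0.05). All 12 had log2 fold changes above 0 over both sexes, with a median of 0.75, and the median was 0.32 in males and 1.09 in females. The share of gene counts in mitochondrially encoded genes was 1.17 to 2.69% in male knockout and 1.61 to 2.05% in male floxed libraries, with male knockout library 3 the lowest of the 12, and 2.77 to 4.04% in female knockout and 2.27 to 2.64% in female floxed libraries. The part of dividing cells, of myeloid cells and of mitochondrial RNA in the results for the members was not tested.

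Several called genes have near-identical copies in the genome, to which reads may be lost or shared. Pgk1 matches the pseudogene Pgk1-rs7 at 100% over 1255 bases, and Eno1 matches the gene Eno1b at 99.5% over 1736 bases. Pgk1-rs7 had 0 counts in every library and Eno1b 123 to 264 counts. Gapdh has 43 such copies, Ldha 3 and Tpi1 and Gpi1 1 each (at least 95% identity over at least 300 bases), while Aldoa and Aldoc have none by this measure. Reads without a unique position made up 14.1 to 17.3% of a library, stood in HTSeq's summary entries and were counted to no gene, so the levels of the genes with copies are uncertain.

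Not every gene of lower glycolysis was called. Pkm, which encodes the pyruvate kinase of the last ATP-making step, is on chromosome 9 and the plus strand. Pkm had 1859, 1664 and 1932 CPM in male knockout libraries, against 1344, 1587 and 1501 CPM in male floxed libraries. Pkm in females had 1203, 1781 and 1539.6 CPM in knockout libraries, against 1517, 1320.1 and 1479 CPM in floxed libraries. The groups did not overlap in males but did in females, where female knockout library 1 was the lowest of all 12, and the log2 fold change was 0.18 (edgeR, SE 0.10, adjusted p = 0.318). Without female knockout libraries 1 and 3 it was 0.30 over both sexes, and 0.31 in females, where 1 knockout library was left. In that fit Ldha was at 0.31 and Eno1 at 0.27 over both sexes. Eno3, on the plus strand, encodes the beta-enolase best known from muscle. Eno3 had 264, 221 and 276 CPM in male knockout libraries, against 269, 335 and 242 CPM in male floxed libraries. Eno3 in females had 374, 277 and 336 CPM in knockout libraries, against 255, 254 and 323 CPM in floxed libraries. Its groups overlapped in both sexes, and the log2 fold change was 0.05 (edgeR, SE 0.12, adjusted p = 0.840), against the 0.36 of Eno1. Bpgm, which makes and degrades 2,3-bisphosphoglycerate, had a log2 fold change of 0.29 (edgeR, SE 0.11, adjusted p = 0.168) and no overlap in females alone. Without female knockout libraries 1 and 3 the fold change of Bpgm was 0.18.

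Of the glucose transporters Slc2a1 and Slc2a3, Slc2a1 encodes GLUT1, which T cells raise on activation, and lies on the plus strand. Slc2a1 had 215, 159 and 187 CPM in male knockout libraries, against 163, 178 and 167 CPM in male floxed libraries. Slc2a1 in females had 142, 178 and 171 CPM in knockout libraries, against 196, 167 and 172 CPM in floxed libraries. The groups overlapped in both sexes and the log2 fold change was 0.01 (edgeR, SE 0.10, adjusted p = 0.955). Slc2a3, which encodes GLUT3, lies on the minus strand and had 0.304 to 2.42 CPM, which is too little to compare the groups. The phosphofructokinase genes Pfkl, Pfkm and Pfkp and the activators Pfkfb3 and Pfkfb4, which set the flow into lower glycolysis, had 0 of 5 called, Pfkfb3 included (edgeR; 0 at an unadjusted p under 0.05) and log2 fold changes from -0.28 to 0.18. Pfkfb4 was lower in all 3 male knockout libraries, 16.04, 25.6 and 20.6 CPM, than in the male floxed ones, 31.3, 26.2 and 30.9 CPM. Pfkfb4 in females had 28.4, 22.8 and 33.6 CPM in knockout libraries, against 34.3, 25.8 and 27.7 CPM in floxed libraries. The female groups overlapped, and its log2 fold change was -0.51 (edgeR, SE 0.22, adjusted p = 0.575) in males and -0.05 (edgeR, SE 0.22, adjusted p = 0.912) in females.

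No gene of the pentose phosphate pathway was called. Of the 5 tested, G6pdx, Pgd, Rpe, Tkt and Taldo1, 0 were called. By edgeR 3 had an unadjusted p under 0.05 over both sexes, against 2512 of the 12411 genes tested. The 5 log2 fold changes over both sexes lay between 0.19 and 0.35. They did not all keep that sign: Pgd was at -0.15 in males and Rpe at -0.02 after the GC and length trend was removed. Tkt, on chromosome 14 and the plus strand, encodes transketolase, which links the pathway back to glycolysis. Tkt had 524, 549 and 546 CPM in male knockout libraries, against 416, 464 and 499 CPM in male floxed libraries. Tkt in females had 558, 584 and 696 CPM in knockout libraries, against 476, 427 and 476 CPM in floxed libraries. The 524 CPM of male knockout library 1 lay above the 499 CPM of male floxed library 4, so that Tkt was the only member outside the 8 whose groups overlapped in neither sex. Its log2 fold change was 0.32 (edgeR, SE 0.08, adjusted p = 0.0530), which misses the threshold. Without overlap in either sex lay 3.97% of all genes as higher and 1.78% as lower, and 9 members as higher and 0 as lower.

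Taldo1 encodes transaldolase, the partner of transketolase, and lies on the plus strand. Taldo1 had 323, 395 and 353 CPM in male knockout libraries, against 261, 297 and 356 CPM in male floxed libraries. Taldo1 in females had 412, 321 and 407 CPM in knockout libraries, against 309.7, 264 and 275 CPM in floxed libraries. In males knockout libraries 1 and 3 lay below floxed library 4, in females there was no overlap, and the log2 fold change was 0.33 (edgeR, SE 0.10, adjusted p = 0.117). With female knockout libraries 1 and 3 left out it was 0.20. Rpe, which encodes ribulose-phosphate epimerase, also lies on the plus strand. Rpe had 202, 176 and 131 CPM in male knockout libraries, against 143, 139 and 132 CPM in male floxed libraries. Rpe in females had 136, 177 and 179 CPM in knockout libraries, against 167, 149 and 149.9 CPM in floxed libraries. Its groups overlapped in both sexes and the log2 fold change was 0.19 (edgeR, SE 0.12, adjusted p = 0.373). G6pdx, the X-linked and minus-strand gene of glucose-6-phosphate dehydrogenase, the entry step of the pathway, had 19.1 to 37.2 CPM and a log2 fold change of 0.35 (edgeR, SE 0.16, adjusted p = 0.237). It was 0.19 without female knockout libraries 1 and 3. Pgd, the minus-strand gene of the next dehydrogenase in the pathway, had 1.48 to 5.79 CPM and a log2 fold change of 0.24 (SE 0.26).

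Lactate leaves the cell through the monocarboxylate transporters MCT4, encoded by Slc16a3, and MCT1, encoded by Slc16a1. Slc16a3 had 173, 135 and 167 CPM in male knockout libraries, against 118, 124 and 135 CPM in male floxed libraries. Slc16a3 in females had 49.4, 131 and 72.6 CPM in knockout libraries, against 114, 129 and 138 CPM in floxed libraries. Female knockout libraries 1 and 3 were the lowest of the 12 for Slc16a3, and the log2 fold change was -0.13 (edgeR, SE 0.20, adjusted p = 0.723), with 0.33 in males and -0.59 in females. Slc16a1 had 90.1, 125 and 134 CPM in male knockout libraries, against 108, 131 and 135 CPM in male floxed libraries. Slc16a1 in females had 12.6, 96.6 and 22.1 CPM in knockout libraries, against 43.1, 89.9 and 90.5 CPM in floxed libraries. Again female knockout libraries 1 and 3 were lowest, followed by female floxed library 1, while the male groups overlapped, and the log2 fold change was -0.43 (edgeR, SE 0.43, adjusted p = 0.586). Without female knockout libraries 1 and 3 the log2 fold change over both sexes was 0.18 for Slc16a3 and 0.13 for Slc16a1. In females alone, where 1 knockout library was left, it was 0.05 for Slc16a3 and 0.37 for Slc16a1.

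The 4 genes that govern the entry of pyruvate into mitochondria had log2 fold changes below 0, between -0.58 and -0.24, with a median of -0.35, and 0 were called (edgeR; 0 at an unadjusted p under 0.05). They are the subunits of the pyruvate carrier, Mpc1 and Mpc2, the dehydrogenase subunit Pdha1 and the kinase Pdk1, which switches the dehydrogenase off. Mpc2 had 70.1, 84.9 and 75.4 CPM in male knockout libraries, against 80.9, 78.2 and 82.5 CPM in male floxed libraries. Mpc2 in females had 11.6, 59.05 and 13.5 CPM in knockout libraries, against 36.8, 67.6 and 75.1 CPM in floxed libraries. Female knockout libraries 1 and 3 held less Mpc2 than any other library, and the male groups overlapped. Pdk1 had 65.4, 77.8 and 269.7 CPM in male knockout libraries, against 154, 249 and 99.7 CPM in male floxed libraries. Pdk1 in females had 44.8, 69.8 and 45.9 CPM in knockout libraries, against 67.9, 93.8 and 83.01 CPM in floxed libraries. Pdk1 was highest in knockout library 3 and floxed library 2 of the males, so that both male genotypes spread widely. The log2 fold change was -0.58 (edgeR, SE 0.37, adjusted p = 0.394) for Mpc2 and -0.45 (edgeR, SE 0.36, adjusted p = 0.499) for Pdk1. Without female knockout libraries 1 and 3 it was -0.05 for Mpc2, and -0.02 in females, against -1.09 there with them, and -0.25 for Pdk1. Mpc1, on the plus strand, and Pdha1, on the minus strand, had at most 12.8 and 6.28 CPM, with log2 fold changes of -0.24 and -0.26.

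Hif1a, the hypoxia factor that drives many glycolytic genes, is on chromosome 12 and the plus strand. Hif1a had 439, 389 and 1265 CPM in male knockout libraries, against 727, 999.7 and 450.1 CPM in male floxed libraries. Hif1a in females had 140.0, 387 and 117 CPM in knockout libraries, against 177, 400.3 and 404 CPM in floxed libraries. Its level spread over 10.8-fold across the 12 libraries, highest in male knockout library 3 and lowest in female knockout libraries 3 and 1. Within each sex the genotypes overlapped, and the log2 fold change was -0.33 (edgeR, SE 0.41, adjusted p = 0.667). With female knockout libraries 1 and 3 left out it was 0.09.

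**Figure D3:**
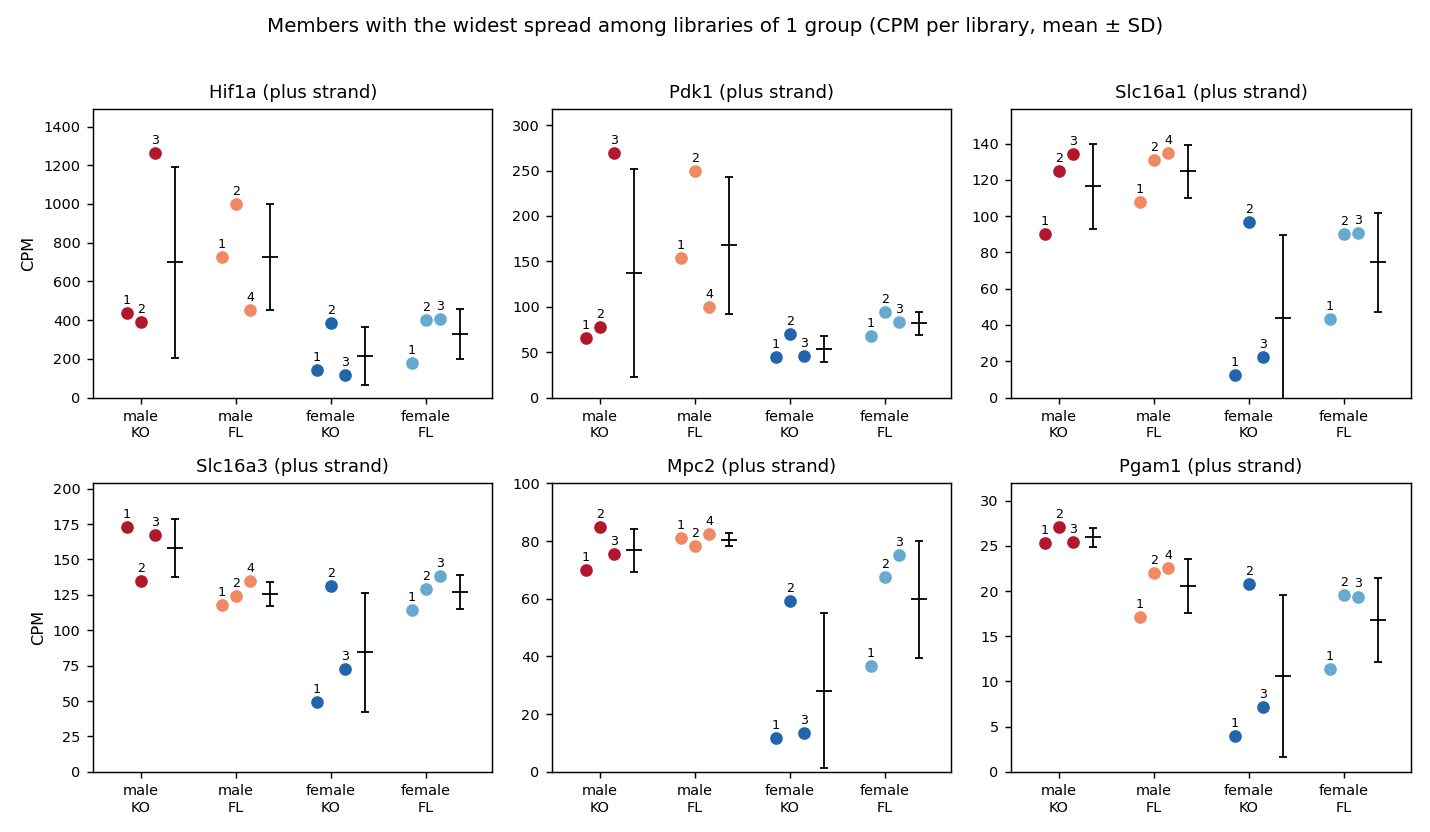
CPM per library (points, numbered) with the mean and SD of each group of 3 for Hif1a, Pdk1, Slc16a1, Slc16a3, Mpc2 and Pgam1, chosen for their spread after the values were seen. Female knockout libraries 1 and 3 are the lowest of the female libraries in each panel, and the SD bar of Slc16a1 in female knockout cells is cut at 0.

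The members differed widely in how closely libraries of a group lay together. The SD within groups, in log2 CPM, had a median of 0.27 over 7006 genes with a mean of at least 5 CPM. It was 0.08 for Gpi1, 0.09 for Aldoa, 0.12 for Tkt and 0.12 for Eno1, against 0.83 for Slc16a1, 0.80 for Hif1a, 0.70 for Mpc2, 0.68 for Pdk1 and 0.62 for Pgam1, which encodes phosphoglycerate mutase. Pgam1 had 25.3, 27.1 and 25.4 CPM in male knockout libraries, against 17.1, 21.96 and 22.6 CPM in male floxed libraries. Pgam1 in females had 3.92, 20.8 and 7.16 CPM in knockout libraries, against 11.4, 19.6 and 19.4 CPM in floxed libraries. The male knockout libraries lay above the male floxed ones for Pgam1, while female knockout libraries 1 and 3 were the lowest of the 12, and the log2 fold change was -0.16 (edgeR, SE 0.34, adjusted p = 0.803), or 0.32 without that pair. For Slc16a1, Slc16a3, Mpc2, Pgam1 and Hif1a the 3 lowest libraries were the same: female knockout libraries 1 and 3 and female floxed library 1. Their rank correlations with GC content were -0.411, -0.318 and -0.0813, while that of female knockout library 2, which was not among the lowest, was -0.154. With the GC and length trend removed, the SD within groups was 0.78 for Slc16a1, 0.76 for Hif1a and 0.66 for Mpc2. It was 0.54 for Pgam1 and 0.24 for Slc16a3, which had 0.38 before, and the median over the 7006 genes was 0.30. The part of GC content in these levels was not tested.

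Within 1 sex no member was called. In males 0 of 33 passed the edgeR test, 9 had an unadjusted p under 0.05, DESeq2 called 3 (Gpi1, Aldoa and Aldoc) and limma-voom with quality weights called 1 (Aldoc), while edgeR called 0.0242% of all genes. Over all genes 1008 of 12411 had an unadjusted p under 0.05 by edgeR in males. The lowest adjusted p among the members was 0.237, for Aldoa, with a log2 fold change of 0.47. The median of the members in males was 0.21, against 0.01 over all genes, and 12 members were higher and 1 lower without overlap, against 8.20% and 6.13% of all genes. In females 0 of 33 passed by edgeR, 12 had an unadjusted p under 0.05, DESeq2 called 7 and limma-voom 22, of which 7 were lower, while edgeR called 0.201% of all genes. Over all genes 2378 of 12411 had an unadjusted p under 0.05 by edgeR in females. There Gapdh had the lowest adjusted p by edgeR, 0.0798, with a log2 fold change of 0.67, and the median of the members was 0.08, against -0.02 over all genes. In females 12 members were higher and 1, Mpc1, lower without overlap, against 15.3% and 9.70% of all genes. The edgeR shares of all genes are no measure for the DESeq2 and limma-voom counts, whose shares within 1 sex are not given. Over both sexes DESeq2 called 1129 and limma-voom 4630 of the 12411 genes.

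The called enzymes had positive fold changes in both sexes, which a call on their mean favours. The log2 fold change was 0.33 in males and 0.34 in females for Gpi1, 0.51 and 0.48 for Pgk1, 0.47 and 0.35 for Aldoa, and 0.43 and 0.67 for Gapdh. The difference between the sexes in the response to the knockout was tested as an interaction. By edgeR it was called for 0 of 33 members and 0% of all genes. DESeq2 called 0 members and limma-voom 4, and their shares of all genes are not given. At an unadjusted p under 0.05 edgeR had 339 of the 12411 genes, among them 2 members. The 2 were Ldhb, the minus-strand gene of the lactate dehydrogenase subunit of oxidative tissues, and Slc16a3. For Ldhb the female response exceeded the male one by 0.54 (edgeR, SE 0.21, adjusted p = 0.892), and for Slc16a3 the difference was -0.92 (edgeR, SE 0.40, adjusted p = 0.892). Ldhb had 124, 111 and 101 CPM in male knockout libraries, against 148, 139 and 121 CPM in male floxed libraries. Ldhb in females had 215, 150.0 and 196 CPM in knockout libraries, against 165, 149 and 156 CPM in floxed libraries. Ldhb was thus lower in male knockout libraries 2 and 3 than in all male floxed ones and highest in female knockout libraries 1 and 3. Without that pair the difference between the sexes was 0.22 for Ldhb and -0.27 for Slc16a3.

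Floxed females and floxed males showed how the members vary without the deletion. None of the 33 was called by edgeR, 0 had an unadjusted p under 0.05, and DESeq2 and limma-voom called 0, while 0.0322% of all genes were called. By edgeR 762 of the 12411 genes had an unadjusted p under 0.05. The widest differences, female over male, were those of Hif1a at -1.15 (SE 0.59) and Pdk1 at -1.04 (SE 0.51), each at an edgeR adjusted p of 0.665. In Ldha the difference was -0.02 (edgeR, SE 0.13, adjusted p = 0.980) and in Eno1 -0.03 (edgeR, SE 0.11, adjusted p = 0.962), against 0.41 and 0.36 between the genotypes over both sexes. The male floxed group is the same in this comparison and in that of the male genotypes.

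Levels of different genes were set side by side per kb of exon, for plus-strand members alone. Ldha stood first at 757 ± 136 CPM per kb (SD over 12 libraries), and its lowest library, at 546, lay above the highest of any other member. Pkm, at 312 ± 44.0, and Eno1, at 304 ± 45.9, did not differ beyond their spread, nor did Eno3 at 164 ± 26.3 and Taldo1 at 153 ± 24.8. Hif1a at 83.3 ± 58.7 and Tkt at 70.4 ± 10.4 followed, then Rpe at 50.3 ± 7.31 and Slc2a1 at 49.8 ± 5.35, again with ranges that overlap. The other 11 ran from Pfkm at 24.9 to Mpc1 at 4.62 CPM per kb, among them the called genes Pgk1 at 12.7 and Aldoc at 6.46. Pgm2 was left out, since its symbol has been exchanged with that of Pgm1 between annotations. Reads without a unique position were counted to no gene, so the order is uncertain for members with near-identical copies. Besides Ldha, Eno1 and Pgk1 these are Pkm, with a copy at 98.4% over 1593 bases, and Pgam1, at 100% over 765 bases.

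**Figure D4:**
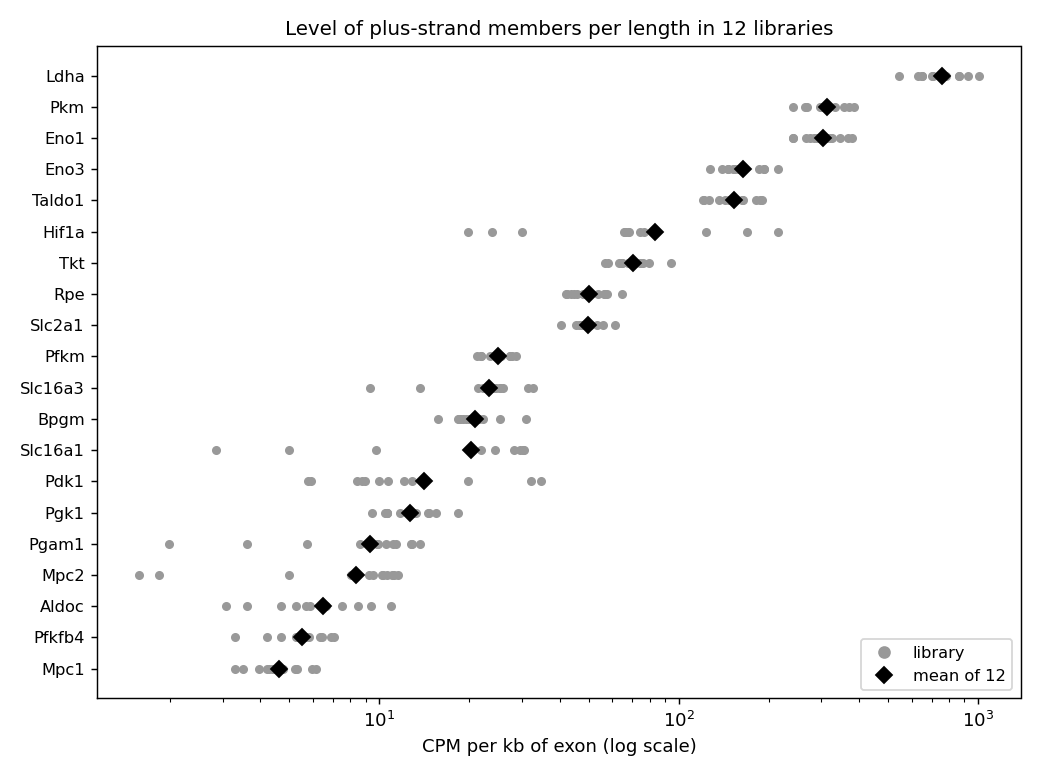
Level of 20 plus-strand members in CPM per kb of exon on a log axis, each library as a grey point and the mean of 12 as a diamond. Ldha lies apart at the top, and Hif1a, Slc16a1, Pdk1, Pgam1 and Mpc2 have the widest rows of points.

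Of the other genes of glucose metabolism, 59 were listed and 34 tested. Of the 34, 1 was called higher, which is close to the share of 2.68% over all genes, and 0 lower, against 0.637%. Their median log2 fold change was 0.13. The 1 was Galm, which encodes galactose mutarotase, an enzyme that also interconverts the forms of glucose. Galm had 146, 116 and 168 CPM in male knockout libraries, against 76.3, 85.2 and 79.1 CPM in male floxed libraries. Galm in females had 159, 119 and 119 CPM in knockout libraries, against 75.98, 89.1 and 80.6 CPM in floxed libraries. The groups did not overlap in either sex, with a log2 fold change of 0.77 (edgeR, SE 0.12, adjusted p = 0.00880). Of 22 HIF-1 pathway genes outside glycolysis, 16 were tested, with a median of -0.01. Of the 16, 1 was called higher and 0 lower, against 2.68% and 0.637% of all genes. It was Bhlhe40, a transcription factor that T cells also raise on activation. Bhlhe40 had 464, 467 and 434 CPM in male knockout libraries, against 289.8, 319 and 415 CPM in male floxed libraries. Bhlhe40 in females had 503, 494 and 513 CPM in knockout libraries, against 327, 306 and 341 CPM in floxed libraries. Its knockout libraries lay above the floxed ones in both sexes, with a log2 fold change of 0.52 (edgeR, SE 0.09, adjusted p = 0.0136). Of 22 regulators of glycolysis, such as Myc, Mtor, Akt1 and the AMP kinase gene Prkaa1, 17 were tested and 0 called, with a median of -0.13. By edgeR 3 of the 17 had an unadjusted p under 0.05, against 2512 of the 12411 genes.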

How the data were processed

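RNA of sorted CD4+Foxp3+ cells was lysed in TRIzol and sequenced from total RNA with SMARTer Stranded kits (Takara), per the labels' protocols. The deposited values were raw counts of reads per gene symbol, with no normalization, made by the authors with CASAVA, STAR (2.5.2b and 2.3.0e) and HTSeq 0.6.1p1 on mm9, per the submitters' processing notes. The annotation and strand setting are not given in the sources used here. HTSeq's 5 summary entries entered no library size or test, and they held 44.3 to 46.9% (no feature), 14.1 to 17.3% (no unique position), 4.73 to 8.01% (unaligned) and 0.584 to 0.678% (ambiguous) of reads. Depth was 12423335 to 30244505 counts per library, and low counts limit the minus-strand members most.

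Genes were filtered with filterByExpr, which left 12411 of 29806 genes with reads, scaled by TMM and fitted with edgeR 4.0.16 (R 4.3.3, robust quasi-likelihood, 1 mean per group, all 12 libraries). P-values were adjusted by Benjamini-Hochberg over all genes, with a threshold of 0.05. Log2 fold changes are knockout over floxed, and their mean over both sexes weights the sexes equally. Strand, exon length and GC content came from GENCODE M21 by symbol (54510 of 55453 matched), promoters from RefSeq (GRCm38.p6, 37 of 38 members), and copies from blastn 2.17.0. The spread used log2(CPM + 0.5).

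A member was described in full if it was called in any comparison or among the 10 plus-strand members of highest CPM. Hif1a and Rpe are among these, while Mpc2, Pdk1, Slc16a1, Pgam1, Ldhb, Bpgm, G6pdx and Pfkfb4 were added after their values were seen. Of each other list, called genes were named. The members and lists were chosen with earlier results of these data known. The alternatives were RLE normalization, DESeq2 1.42.0, limma-voom (limma 3.58.1) with quality weights, a filter of 5 CPM in 3 libraries, no filter, a replicate block, plus-strand genes alone, a GC and length trend removed (estimated on 5628 genes), 1 sex alone, 2 pairs of libraries left out, and each library left out. The fit was tested on simulated counts. Figures were drawn with matplotlib 3.10.9.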

Additional observations from a re-analysis of the deposited data

How the results depend on the processing

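Over both sexes, where 8 members were called, the count was 7 with RLE normalization, 9 with DESeq2 or the 5 CPM filter, 4 without a low-count filter, 3 on plus-strand genes alone, 1 after the GC and length trend was removed, 0 when female knockout libraries 1 and 3 were left out, 2 when male knockout library 2 and male floxed library 4 were, and 17 with limma-voom, 13 higher and 4 lower (Slc16a1, Mpc2, Pdk1 and Hif1a). It ran from 0 to 13 over the fits that left out 1 library. In females it was 7 with DESeq2, 22 with limma-voom and 0 to 16 with 1 library left out, the 16 without female knockout library 2. In males it was 3 with DESeq2, 1 with limma-voom and 0 in each fit with 1 library left out. The difference between the sexes had 4 calls with limma-voom and 0 to 5 with 1 library left out. The cause of these changes was not tested. Over all genes the 411 calls became 1218 with the replicate block, 1129 with DESeq2, 4630 with limma-voom, 281 after the GC and length trend was removed, 44 without female knockout libraries 1 and 3 and 2940 without library 2 of that group.

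Over both sexes the 8 called members kept a positive fold change in all alternatives run, while members near 0 or with a wide spread changed sign. Over both sexes Slc2a1 was -0.00851 on plus-strand genes alone and -0.05 to 0.07 with 1 library left out, and Eno3 was -0.02 to 0.12 with 1 library left out. After the GC and length trend was removed Slc16a3 was 0.14 and Rpe -0.02. Without female knockout libraries 1 and 3, where 1 female knockout library is left, whose spread is taken to be that of the other groups, Eno3 was -0.08, Slc16a3 0.18, Hif1a 0.09, Slc16a1 0.13 and Pgam1 0.32 over both sexes, and Hif1a was 0.24, Slc16a1 0.37, Slc16a3 0.05 and Pgam1 0.31 in females. With 1 library left out Pgam1 was -0.62 to 0.03 over both sexes, and in males Hif1a was -0.79 to 0.25, Pdk1 -1.21 to 0.12 and Slc16a1 -0.20 to 0.05.

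Libraries of the same number were not alike throughout. Their deviations from the group means correlated at 0.442 and -0.614 in males and at 0.189, 0.279 and -0.225 in females. Libraries of unlike number ran from -0.48, for female knockout 2 and floxed 1, to 0.673, for male knockout 2 and floxed 4. Whether libraries were paired cannot be told from these few values. With the replicate number as a block 4 members were called over both sexes, Aldoc, Gapdh and Eno1 higher and Pdk1 lower, Slc2a1 was -0.00247 and Eno3 -0.04, and 0 members were called in males, in females or for the difference between the sexes.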
